A study of Mus musculus with 8 samples.

Results

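The genes described here are 4 DNA-binding developmental factors, Pax8, Runx1, Zbtb16 and Hivep3, and 2 transcription cofactors, Gse1 and Ldb1. They were chosen because a table of regions with changed H3K27me3 names each of them at a listed region, as an overlapped gene or as a flanking gene. All 6 genes were found, at 9 of the 378 listed regions. The mark, trimethylation of histone H3 at lysine 27, was profiled by chromatin immunoprecipitation and sequencing in epithelium of the jejunum of female mice, from crypts per the series' design. The 4 control samples are labelled as control or wild type. The 4 double-knockout samples (DKO) had lost Kdm6a and Kdm6b, and both groups were taken 7 days after that ablation was induced. Strain, age, the driver of the ablation and its inducing agent were not stated in the labels used here.

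H3K27me3 is written by Polycomb repressive complex PRC2 and marks genes that are kept silent, often developmental regulators that specify other tissues. Kdm6a (UTX) and Kdm6b (JMJD3) encode the enzymes that remove methyl groups from this residue. PAX8 is a paired-domain factor of thyroid and kidney development, and RUNX1 is a Runt-domain factor of blood formation that binds DNA with its partner CBFB. ZBTB16, also called PLZF, is a BTB zinc finger factor known from germline stem cells and innate-like lymphocytes, and HIVEP3 is a large zinc finger protein that binds kappa B-like sequences. GSE1 is found with histone deacetylase and lysine demethylase corepressor complexes. LDB1 dimerises and joins LIM-domain and GATA factors, which brings distant enhancers to promoters.

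Of the members, 3 had a start site of the RefSeq promoter table inside a changed region. The sequences before those start sites are shown because they differ widely in CG pairs, a feature of promoters that Polycomb complexes often occupy. The start of Pprc1, which shares its region with Ldb1, is set beside them. Each run is the 250 bases before the start site from RefSeq (GRCm38.p6), 5′ to 3′, with CG pairs in capitals.
Pax8, chr2:24475600-24475849, minus strand: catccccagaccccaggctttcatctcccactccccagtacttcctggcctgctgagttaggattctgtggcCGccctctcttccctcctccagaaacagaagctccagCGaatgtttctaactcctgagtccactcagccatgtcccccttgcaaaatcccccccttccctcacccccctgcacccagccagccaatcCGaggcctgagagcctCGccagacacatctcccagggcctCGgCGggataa
Gse1, chr8:120488616-120488865, plus strand: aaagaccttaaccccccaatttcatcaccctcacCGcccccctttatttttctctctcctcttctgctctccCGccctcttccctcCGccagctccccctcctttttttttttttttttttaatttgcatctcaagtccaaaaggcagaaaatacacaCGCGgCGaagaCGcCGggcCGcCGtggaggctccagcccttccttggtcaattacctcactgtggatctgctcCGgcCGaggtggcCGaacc
Ldb1, chr19:46045312-46045561, minus strand: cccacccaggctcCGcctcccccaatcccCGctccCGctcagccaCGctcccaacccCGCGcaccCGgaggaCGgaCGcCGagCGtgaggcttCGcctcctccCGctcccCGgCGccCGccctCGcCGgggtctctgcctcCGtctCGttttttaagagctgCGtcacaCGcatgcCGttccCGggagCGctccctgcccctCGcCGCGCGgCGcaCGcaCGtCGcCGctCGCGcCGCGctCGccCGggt
Pprc1, chr19:46056289-46056538, plus strand: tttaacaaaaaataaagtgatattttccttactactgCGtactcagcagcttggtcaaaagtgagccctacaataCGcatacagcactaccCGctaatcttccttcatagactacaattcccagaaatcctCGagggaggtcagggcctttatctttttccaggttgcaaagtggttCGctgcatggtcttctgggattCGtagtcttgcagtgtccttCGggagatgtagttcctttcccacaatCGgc
The Pax8 window held 6 CG pairs, the Gse1 window 13, the Ldb1 window 40 and the Pprc1 window 8.

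Of the 9 regions, 7 were called up, at Pax8, Runx1, Gse1 and beside Hivep3, and 2 were called down, at Zbtb16 and Ldb1. The DNA-binding factors had 3 up regions and 1 down region, and the cofactors 4 up regions, all at Gse1, and 1 down region. The deposited p-values and FDR imply that the authors tested 58963 regions, a number that the file itself does not state. Of these, 0.641% were listed as changed, 0.438% as up and 0.204% as down. The members were chosen from these calls, so their own counts carry no information about them. Values of change are the log2 fold change of 1 representative window per region, from the authors' deposited table, and the false discovery rate (FDR) is the authors' own. Listed regions of a single window were 1000 or 2000 bp wide, so the windows within each member region overlap. Counts of windows therefore cover the same DNA repeatedly and are not separate measurements. The table does not name its reference group. Up is the table's word. It would by custom mean more H3K27me3 in the knockout samples, but the table does not say so. The files hold 0 columns of values per sample, so the values of the 4 control and 4 DKO samples, their spread and their depth are unknown, and no change carries a standard error. The labels do not say whether the samples of a group came from separate mice, so the FDR may reflect technical spread only.

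**Figure D1:**
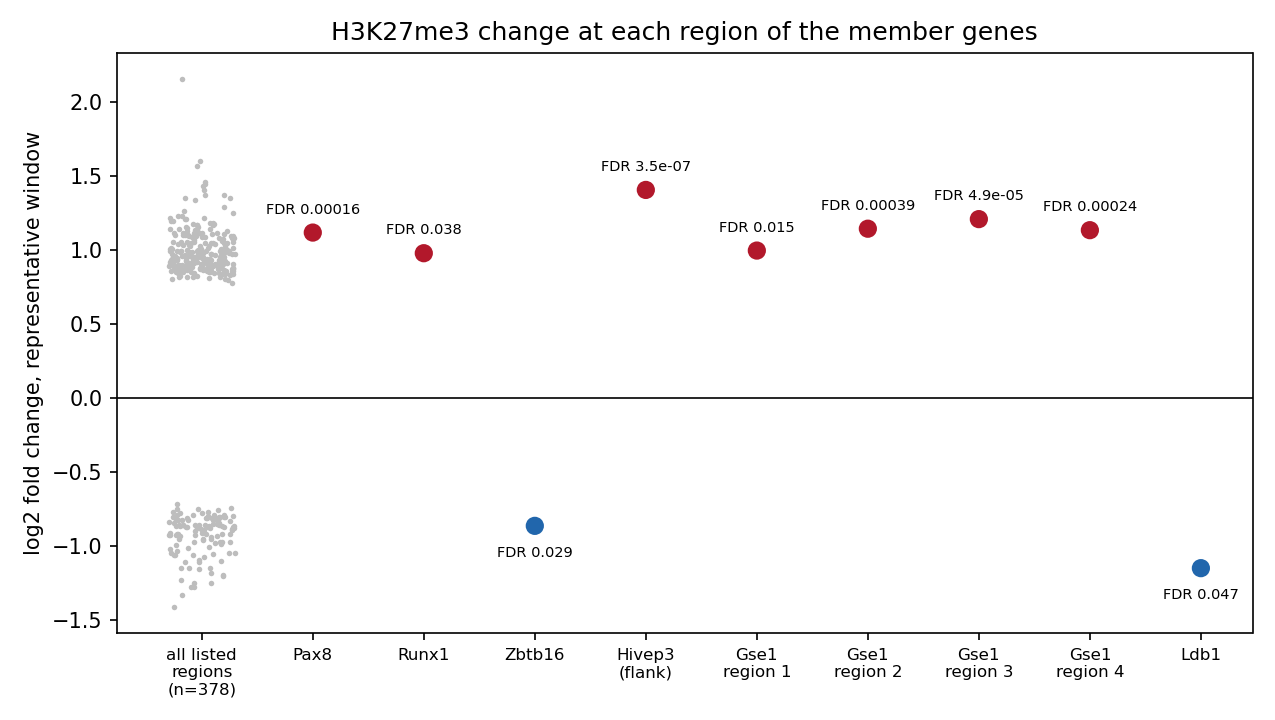
Log2 fold change of the representative window (y axis) at each of the 9 regions of the member genes (x axis; red up, blue down, labelled with the authors' FDR), beside all 378 listed regions in grey, spread sideways for legibility. The 7 up regions lie between 0.98 and 1.40 and the 2 down regions at -0.86 and -1.15, and the empty band around 0 holds no points because the file stops at the FDR limit.

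Pax8 had its change at the start of the gene. The region, chr2:24471001-24477500 (mm10), was 6.5 kb wide and reached from 1.90 kb before the start site to 4.60 kb into the gene, and the table marks it as promoter and exon. It covered 8.35% of the 55.0 kb gene on the minus strand. All 28 of its windows were counted as up, and by the authors' deposited table the log2 change was 1.12 (2.17-fold, FDR 1.61e-04). By size of change it ranked 43 among the 258 up regions. All windows were counted as up in 47 of those 258 regions, or 18.2%. The nearest listed region on the side of the Pax8 start, 810 kb away, overlapped Grin1, a glutamate receptor subunit gene, with Lrrc26, Grin1os and Tmem210, and was flanked by Anapc2. Its log2 change by the authors' deposited table was 1.09 (FDR 5.12e-04), but only 33 of its 124 windows were counted as up.

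Runx1 had a small intronic region far from both of its start sites in the table. The region, chr16:92620501-92621750 (mm10), was 1.25 kb wide, and lay 204 kb downstream of the distal start site and 75.6 kb downstream of the proximal one. It lay 19.0 kb before the 3′ end of the gene and covered 0.557% of its 224.6 kb. It held 2 windows, which must overlap in a region this narrow. Both were counted as up, with a log2 change of 0.98 by the authors' deposited table (1.97-fold, FDR 0.0382). The better of the windows had 1.00 as its log2 change by the authors' deposited table. Among up regions, 8 of 258 had at most 2 windows. The next listed regions on chromosome 16 were up and lay at Hunk, a kinase gene, 2.21 Mb away, and at Cldn14, a tight junction gene, 1.30 Mb away.

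Zbtb16 was marked in the middle of the gene, not at its start. The region, chr9:48736001-48767000 (mm10), was 31 kb wide and lay from 69.2 to 100.2 kb downstream of the gene's 5′ end on the minus strand. The table marks it as exon, without a promoter. It covered 16.8% of the 184.4 kb gene. By the authors' deposited table its log2 change was -0.86 (0.549-fold, FDR 0.0294). A minority of its windows, 22 of 177 (12.4%), was counted as down and none as up. At most 20% of windows were counted in 20 of the 120 down regions (16.7%) and in 20 of the 258 up regions (7.75%). The change of a window inside neither count is not given, and neither is the place of the representative window in the region. The nearest listed regions on chromosome 9 were 4.01 Mb away at Phldb1 (up) and 8.23 Mb away at Ptpn9 (down).

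The Hivep3 entry is a flank and not a change within the gene. The region, chr4:120141001-120172000 (mm10), began 2956 bp beyond the 3′ end of Hivep3 and lay 326 kb from the start site in the promoter table. It covered the whole of Edn2, which encodes endothelin 2, and 17.8 kb of the noncoding gene Gm36134. In the authors' deposited table, 170 of its 176 windows were counted as up, and the log2 change was 1.40 (2.65-fold, FDR 3.47e-07), rank 7 of 258. An adjoining up region, overlapping it by 1500 bp, had a log2 change of 1.11 by the authors' deposited table, with 155 of 159 windows up. A further region on the same side made this a run of 3 up regions over 90 kb, leading away from Hivep3. On the side of the Hivep3 gene body the nearest listed region was 15.7 Mb away, at Dab1.

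**Figure D2:**
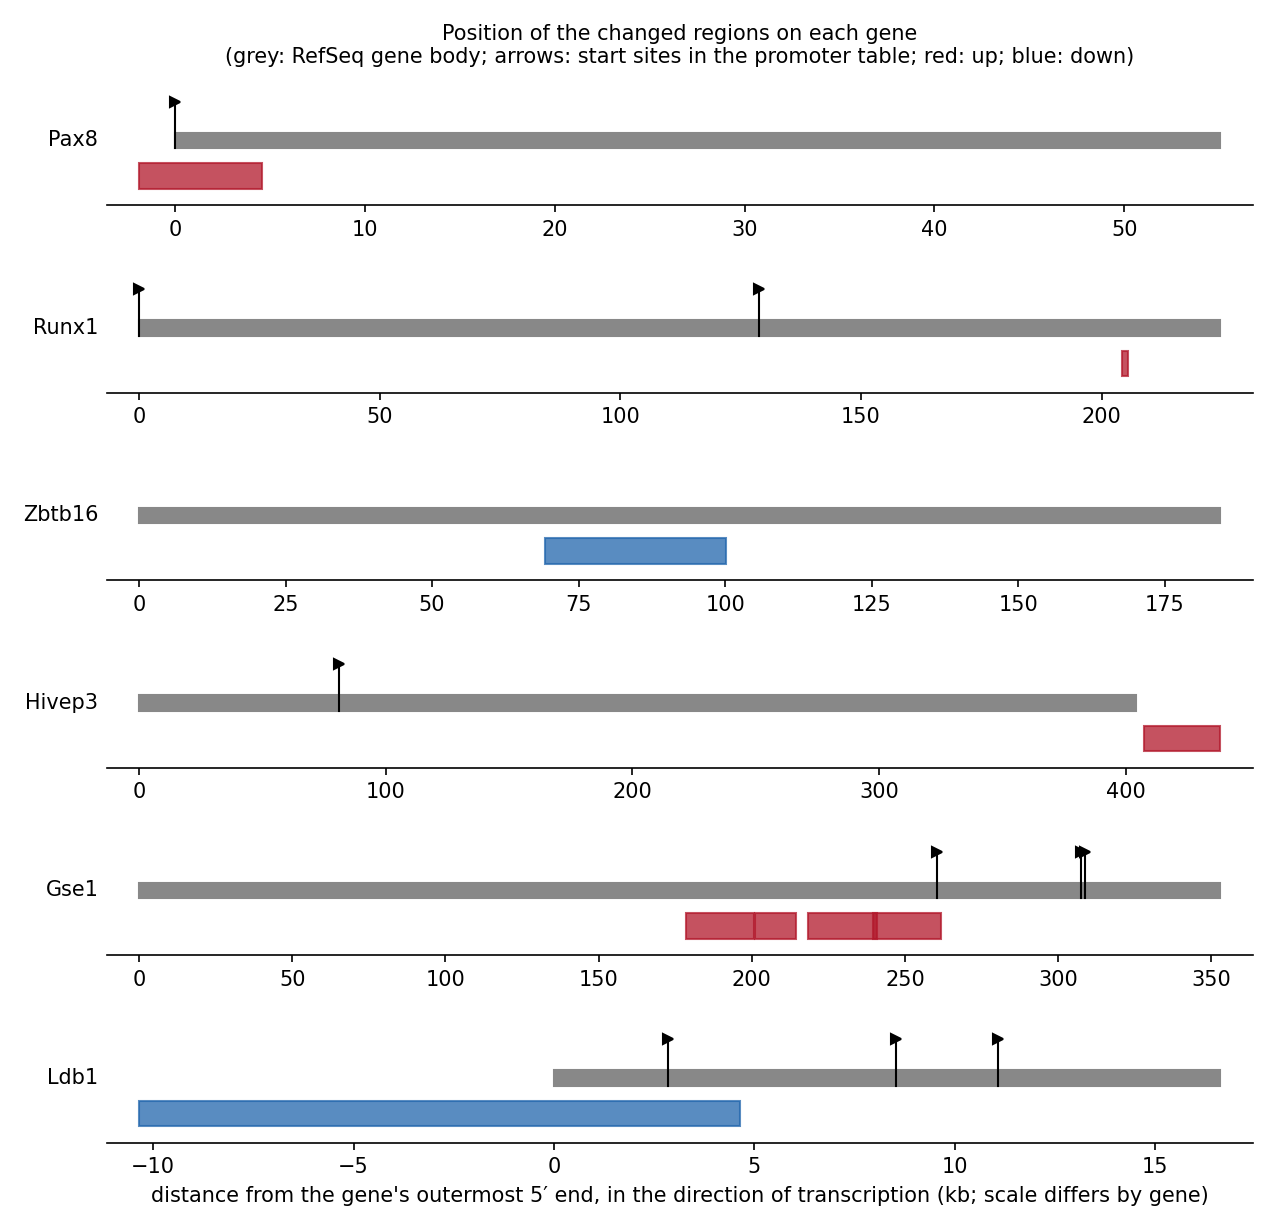
Position of the changed regions (red up, blue down) along the RefSeq gene bodies (grey), with distance from the outermost 5′ end in kb on each x axis, in the direction of transcription; arrows mark start sites in the promoter table, where Zbtb16 has no entry. Regions cover a start site at Pax8, Gse1 and Ldb1, lie within the gene at Runx1 and Zbtb16, and lie beyond the 3′ end at Hivep3.

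Gse1 carried a run of 4 up regions over 83.25 kb that ended at an internal start site. It was the only run that lay within a member gene. Regions 1 to 4, named in order of transcription on the plus strand, were chr8:120407001-120429250, chr8:120429501-120443000, chr8:120447001-120469500 and chr8:120468001-120490250 (mm10). Regions 1 and 2 were 250 bp apart, regions 2 and 3 were 4.0 kb apart, and regions 3 and 4 overlapped by 1500 bp. Together they covered 79.0 kb, or 22.4% of the 352.9 kb gene. The table marks regions 1, 2 and 3 as intron and region 4 as promoter and exon. Region 4 reached 1.38 kb past the first start site of the promoter table, while the other start sites lay 45.6 and 47.2 kb further on and were outside every listed region. The gene's 5′ end in RefSeq lay 178.5 kb before the run and was also outside. The nearest listed region before the run, 304 kb away, was named with Zdhhc7 and Galnt2 and was up. Its log2 change by the authors' deposited table was 1.08 (FDR 0.0330), with 8 of 10 windows counted as up.

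Along the run the log2 changes lay between 0.99 and 1.21 by the authors' deposited table. Region 1 had a log2 change of 0.99 by the authors' deposited table (1.99-fold, FDR 0.0154), with 91 of 123 windows up. Region 2 had 1.14 as its log2 change by the authors' deposited table (2.21-fold, FDR 3.93e-04), with 56 of 60 windows up. Region 3 had the largest value of the 4, a log2 change of 1.21 by the authors' deposited table (2.31-fold, FDR 4.87e-05), and all 122 windows up. Region 4, at the start site, had 1.13 by the authors' deposited table (2.19-fold, FDR 2.39e-04), with 100 of 113 windows up. The values of the 4 regions have no error, so their order was not tested, and neighbouring regions share chromatin and are not replicates. The representative windows of regions 1 and 2 were only 10 places apart in the table's window index. Runs of 4 or more up or down regions at most 5 kb apart numbered 4 in the table, and the one at Gse1 ranked 5 by span among all 328 runs and single regions. The table also assigns all 4 regions to an intron of Galnt2, whose RefSeq gene body lies 3.74 to 3.80 Mb away. Region 4 overlapped 2.97 kb of the noncoding gene Gm51556, whose signal cannot be told apart from that of Gse1.

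**Figure D3:**
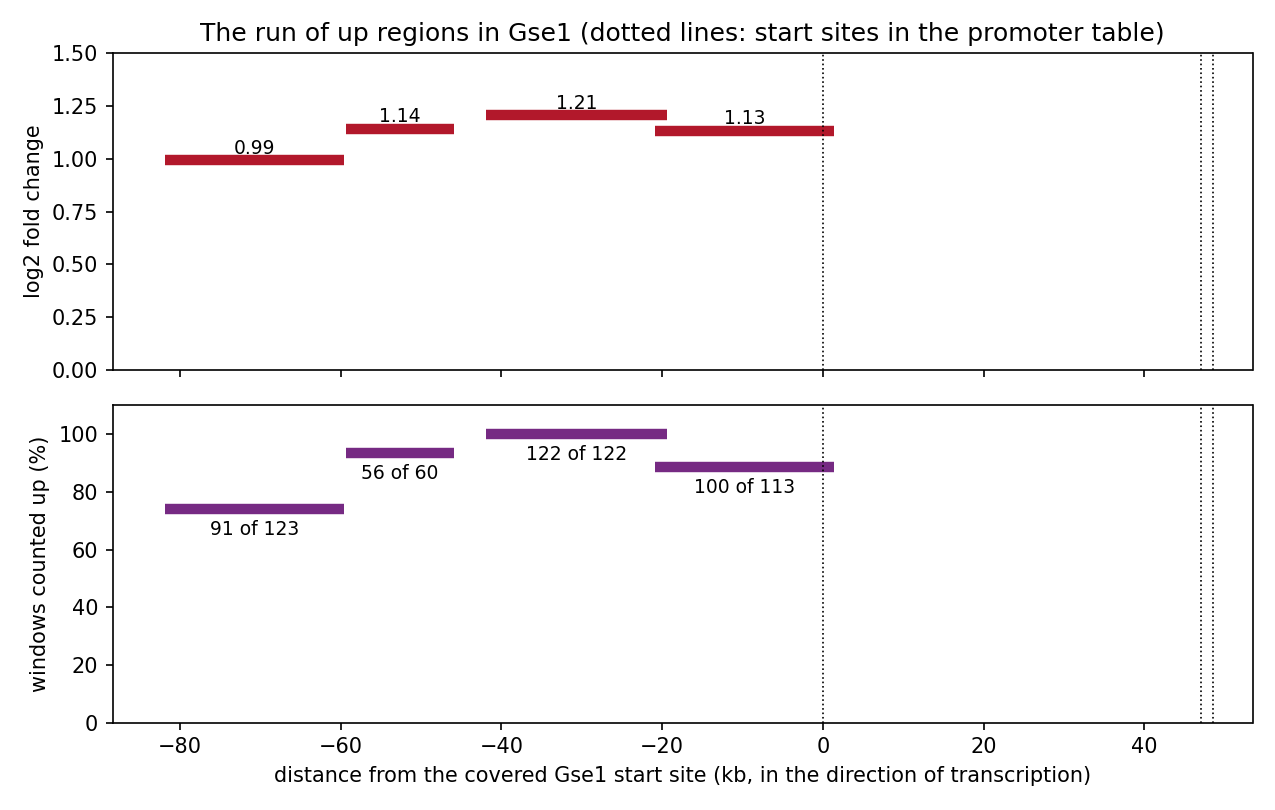
The 4 up regions of Gse1 drawn to scale against distance from the covered start site (x axis, kb), with the log2 fold change above and the percentage of windows counted as up below. Values run from 0.99 to 1.21 and from 74.0% to 100%, both highest in region 3, and the start sites to the right (dotted lines) lie outside the run.

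Ldb1 shared its region with a neighbour. The region, chr19:46043501-46058500 (mm10), was 15 kb wide, of which 4.64 kb lay in Ldb1, 8.38 kb between the genes and 1.98 kb in Pprc1, which encodes a transcription coactivator and is read in the opposite direction. It is marked as promoter and exon of both genes and covered 27.9% of the 16.6 kb Ldb1 gene. One of the 3 Ldb1 start sites in the promoter table lay inside it, and the others lay 3.88 and 6.43 kb outside. By the authors' deposited table its log2 change was -1.15 (0.451-fold), rank 14 among the 120 down regions by size. Its FDR of 0.0466 was the closest of the 9 to the limit of 0.05, and regions just past that limit are not listed. Windows counted as down were 12 of 67 (17.9%), and none was counted as up. The table does not place these windows, so a change nearer to Ldb1 cannot be told apart from one nearer to Pprc1 or between them. The table also names Mir3084-2 here, whose RefSeq position is 14.7 Mb away. The next listed regions on chromosome 19 were both up, 3.81 and 1.23 Mb away.

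The up regions of the members consisted mostly of windows counted as changed, and the down regions did not. The share of windows counted was between 74.0 and 100% in the 7 up regions and 12.4 and 17.9% in the 2 down regions. The medians over all listed regions were 72.2% for up and 64.3% for down. By the authors' deposited table the members' median log2 changes were 1.13 for up and -1.01 for down, against 0.96 and -0.88 over all listed regions. Their median widths were 22.25 and 23 kb, against 17.25 and 6.0 kb. Of the 7 up regions, 4 are neighbouring pieces of the run at Gse1. Both up medians, 1.13 and 22.25 kb, are the values of Gse1 region 4. The down medians rest on 2 regions only. The members were chosen from these calls, so no difference from all listed regions was tested. These figures describe the listed regions only, since the authors' file holds no region that missed the limit. In order of the table's window index the chromosomes start over, from which 2 window sets were inferred, since the table names none. The representative windows of Runx1 and Ldb1 fell in the second set, as did those of 75 of the 378 regions. Regions of a single window were 1000 bp wide in that set and 2000 bp in the first. Windows of a member region overlap at these widths, so the shares of windows above are not shares of separate measurements.

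**Figure D4:**
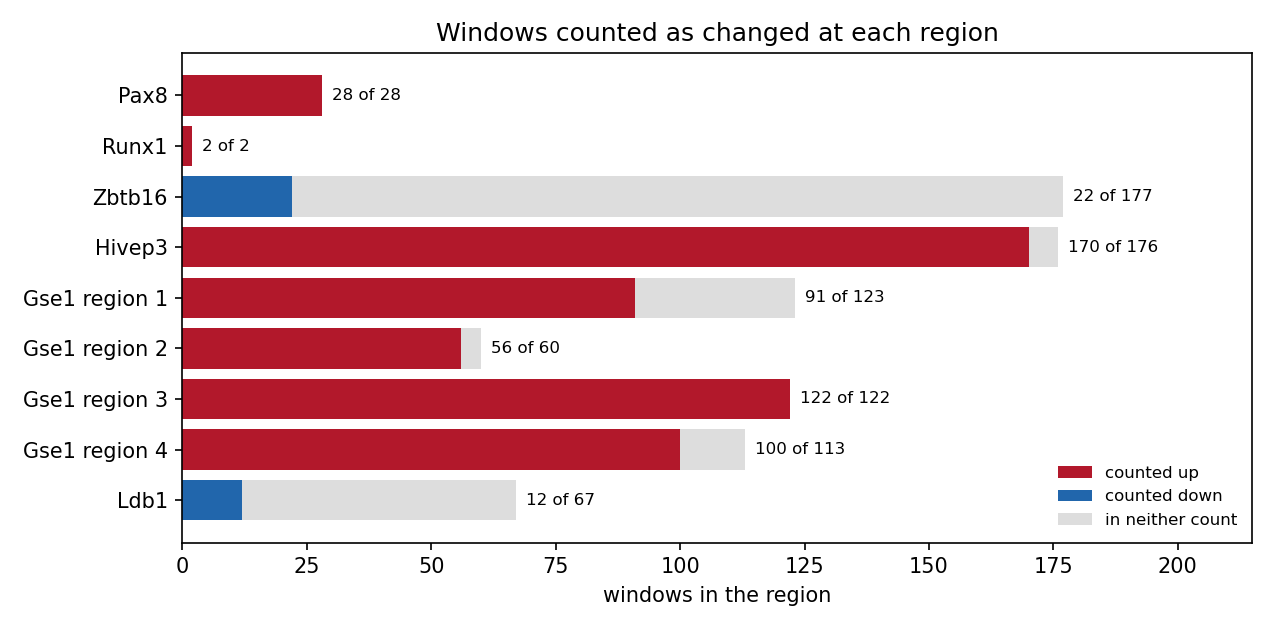
Number of windows in each of the 9 regions (x axis), split into windows counted as up (red), counted as down (blue) and in neither count (grey). Up regions are mostly or wholly red, with 2 of 2 windows at Runx1 and 170 of 176 beside Hivep3, while 22 of 177 windows at Zbtb16 and 12 of 67 at Ldb1 are blue.

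By role, a promoter was marked at 1 DNA-binding factor (Pax8) and at both cofactors. By the member gene alone, 3 of the 9 regions were marked as promoter, 1 as exon without promoter, 4 as intron only and 1 as flank only. By any gene the table names, 4 of the 9 were marked as promoter, since the region beside Hivep3 covers the start of Edn2, 1 as exon without promoter and 4 as intron only. By any gene, over all 378 listed regions, 189 were marked as promoter of some gene, 10.6% as exon without promoter, 10.8% as intron only, and 28.6% overlapped no gene. These shares take the table's names as given, including Galnt2, which it places megabases from its RefSeq gene body. With 9 regions, 4 of them in 1 gene, no difference from these shares was tested.

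CpG content differed widely among the members' promoters. The promoter table held 10 start sites for 5 of the members, all but Zbtb16. The Pax8 window, in an up region, had more CG pairs than 49.6% of all 32851 promoter windows, the covered Gse1 window more than 68.5% and the covered Ldb1 window, in a down region, more than 98.7%. The start sites outside the regions ranged as widely, from 2 CG pairs at the distal Runx1 start to 32 at a Gse1 start, with 27 at the proximal Runx1 start and 9 at Hivep3. The median was 6 CG pairs for all windows, 6 for the 147 windows in listed up regions and 16 for the 60 in listed down regions, which was not tested.

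**Figure D5:**
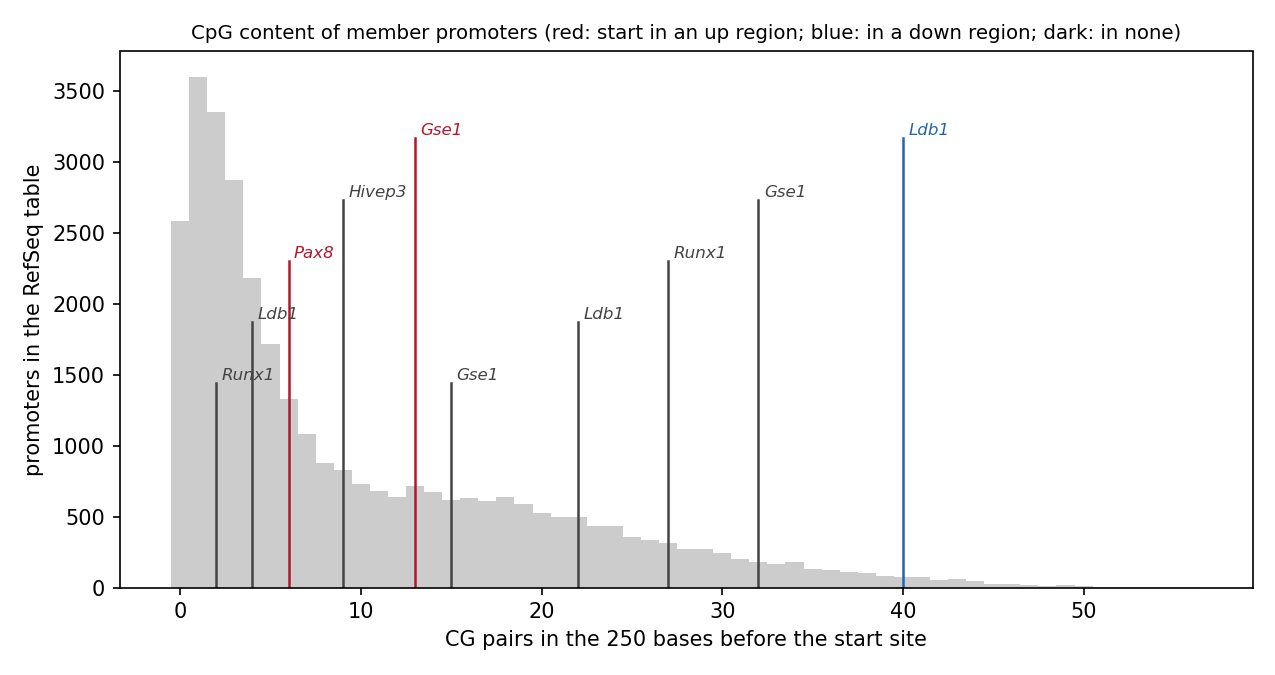
Number of RefSeq promoters (y axis) by CG pairs in the 250 bases before the start site (x axis), with the 10 start sites of the member genes as lines (red in an up region, blue in a down region, dark in none). The covered starts of Pax8, Gse1 and Ldb1 have 6, 13 and 40 CG pairs.

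The same windows were searched on both strands for 6 short motifs of factors related to the members. None matched in the 3 covered windows of the members. In the other 7 windows, the motif AGATAA, bound by GATA factors, matched 2 times before 1 Ldb1 start site outside the region and is found in 9.99% of all windows. CACCTG matched 2 times before 1 Gse1 start site and 1 time before the distal Runx1 start site (17.2% of all windows), and CACGTG 1 time before the distal Runx1 start site (6.02%). The RUNX core TGTGGT (14%), CAGCTG (13%) and a kappa B-like motif (0.356%) had no match in the 10 windows. Outside the members, the covered start of Pprc1 had 1 match of AGATAA and that of Edn2 had 1 match of TGTGGT. No 2 matches overlapped. A match is a stretch of letters and not a binding site.

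Of the relatives and partners of the members, 1 gene was listed, Cbfa2t3. The 6 lists of families and complexes held 110 genes, members included, of which 5 were named at an up region and 2 at a down region. Members make up 6 of these 7 genes and were chosen because they are listed, so the count is fixed by that choice. Of 21900 protein-coding RefSeq genes, 1.31% were named at a listed region. Pax8 was the only one of 9 PAX genes at a listed region, and Hivep3 the only one of 3 HIVEP genes. Zbtb16 was the only listed one of 47 BTB zinc finger genes, of which 46 were found in the gene reference. Ldb1 was the only listed one of 29 genes of LIM-domain and GATA complexes. Gse1 was the only listed one of 15 genes of CoREST-type corepressor complexes. Among 7 genes of the RUNX group, Cbfa2t3 was listed besides Runx1. It encodes ETO2, a corepressor that joins blood transcription factor complexes in which LDB1 also takes part. Its region, chr8:122696501-122724500 (mm10), was 28 kb wide, was marked as promoter and exon, and had 76 of 159 windows up and a log2 change of 0.87 by the authors' deposited table (1.83-fold, FDR 0.0281). That region was the next listed one after the Gse1 run, 2.21 Mb further on, and was also named with Galnt2. A gene outside the listed regions is not shown to be without change, since its values are not in the file.

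Markers of the cell types that the samples could hold say little in such a file. Of 20 markers, the epithelial gene Vil1 lay at an up region and the natural killer cell gene Klrb1c at 2 down regions, and the other 18 lay at no listed region. As given above, 1.31% of protein-coding genes were named at one, and with so few markers no difference from that share was tested. By the authors' deposited table Vil1 had a log2 change of 1.56 and Klrb1c -1.28 in both regions. A change of H3K27me3 within the epithelium cannot be told apart here from a change in the mixture of cells, and its part in the results at Runx1 and Zbtb16, genes also used in blood cells, was not tested.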

How the data were processed

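H3K27me3 chromatin from 4 control and 4 DKO samples, grouped by their titles, was cut with micrococcal nuclease after formaldehyde fixation, per the labels' protocols. Per the submitters' processing notes the build was mm10 and the tools listed include Bowtie 0.12.7, SICER 1.0.3, Picard 1.141, SAMtools 1.11, FastQC 0.10.1 and edgeR, the last with no version. Order and settings were not given in the sources used here for any of these tools.

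The file is the authors' comparison of the groups, with headers in the layout of csaw. The deposited window counts, p-values, FDR and log2 fold changes were used as the authors gave them. Per the file headers, region width and window index come with each region. The number of regions tested was derived from the deposited p-values and FDR. With 58963 tests, Benjamini-Hochberg adjustment of all listed p-values gave the deposited FDR to within a relative difference of 5.7e-15. The rule for counting a window as up or down is not given. Rows had 17 to 21 cells for 17 columns, since annotation fields hold unquoted commas. Cells from column 15 on were therefore read one by one, as an overlap if ending in letters (P promoter, E exon, I intron) and as a flank if ending in a distance. Flanks reached 4989 bp. Gene bodies and start sites were those of RefSeq GRCm38.p6, the same build, where all 6 members matched. Analyses used Python 3.11.15 and pandas 2.3.3, and the row reader, the adjustment and the motif search were tested on simulated data.

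The members and lists were chosen with earlier results of these data known. The text names the members, other genes at their regions, the nearest listed regions and listed members of the family lists. No test was run on the members. Neighbours beyond 1 Mb, outside the naming rule, were chosen after their values were seen.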

Additional observations from a re-analysis of the deposited data

How the results depend on the processing

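The 7 up and 2 down regions of the member genes were counted again under 8 alternatives, of which 1 region per gene, the first window set only and at least 3 windows were chosen after the data were seen. The up count was 4 with 1 region per gene and 5 to 7 otherwise. The down count fell to 0 at FDR 0.01, to 1 where the log2 change had to be 1 or more in size, which lost Zbtb16, and to 1 in the first window set, where Ldb1 was lost. It stayed at 2 under the other 5. At FDR 0.01, 5 of the 9 regions passed, those at Pax8, beside Hivep3 and Gse1 regions 2 to 4. With that limit on size, 6 passed and Runx1, Zbtb16 and Gse1 region 1 did not. These alternatives are subsets, so a count can only fall or stay. By the best window, 8 of 9 values in the authors' deposited table were identical to those of the representative window. Leaving out Hivep3, which is a flank, left 6 up regions.

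No paired analysis was possible because the files hold no values per sample. For the same reason leaving out replicates was not run, and the depth of the libraries is unknown.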
